A study of Mus musculus with 9 samples.

Results

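The Myc, Max and Mxd network was followed here through its 8 named genes, Myc, Mycn, Max, Mxd1, Mxd3, Mxd4, Mxi1 and Mnt, in bone marrow cells of wild-type and Spop knockout mice. The members were taken by gene symbol, and all 8 were found in each of the deposited tables, among 37187 genes in the table of LSK cells and 45076 in that of neutrophils. LSK cells lack lineage markers and carry Sca-1 and Kit, and they include blood stem cells and early multipotent progenitors, and the neutrophils had been sorted by the surface protein Ly6G. RNA-seq had been run on 9 libraries: 2 wild-type LSK (genotype Spop(+/+)), 2 knockout LSK (Spop(D/D)), 2 wild-type neutrophil and 3 knockout neutrophil, all from bone marrow of animals aged 4 to 12 weeks. Spop encodes an adaptor that brings substrates to a cullin-3 ubiquitin ligase, and the series asks whether it restrains inflammation-driven blood formation through the signalling protein MyD88. The sources used here do not give the deleted part of the gene, the driver of the deletion or whether animals were pooled.

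The members are basic helix-loop-helix leucine zipper proteins that act in pairs. Myc and its relative N-Myc, the product of Mycn, bind DNA only together with Max and mostly raise transcription of genes for growth, ribosome making and division. Mxd1, Mxi1, Mxd3, Mxd4 and Mnt compete for the same partner Max and bring Sin3 and histone deacetylase complexes to the same DNA element, the E-box CACGTG, where they lower transcription. In blood formation Myc is known for driving progenitors to divide and leave the stem cell niche, and Mxd1 for its rise as granulocytes mature.

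The E-box is the sequence on which the members meet, so the promoters of members that hold it are shown. Promoter sequences, running from 250 bases before to 50 bases after a gene's start, were taken from RefSeq (GRCm38.p6) and matched 7 of the 8 members by symbol; Myc was not matched. CACGTG, which reads the same on both strands, was found in 3 of these 7 members, Max, Mxd4 and Mnt. Over all genes with such a promoter it was found in 2187 of 27025 (8.09%), counting a gene once if any of its promoters held it. The 3 promoters are printed along the strand of the gene, with the E-box in capitals. That of Max lies at chr12:76962199-76962498 (minus strand), that of Mxd4 at chr5:34187661-34187960 (minus strand) and that of Mnt at chr11:74830674-74830973 (plus strand).
Max: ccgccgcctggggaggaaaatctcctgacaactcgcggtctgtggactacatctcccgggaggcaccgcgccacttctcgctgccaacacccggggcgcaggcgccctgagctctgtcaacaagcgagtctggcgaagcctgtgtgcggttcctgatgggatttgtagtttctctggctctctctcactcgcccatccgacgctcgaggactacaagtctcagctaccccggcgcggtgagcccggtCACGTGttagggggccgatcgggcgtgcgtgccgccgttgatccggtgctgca
Mxd4: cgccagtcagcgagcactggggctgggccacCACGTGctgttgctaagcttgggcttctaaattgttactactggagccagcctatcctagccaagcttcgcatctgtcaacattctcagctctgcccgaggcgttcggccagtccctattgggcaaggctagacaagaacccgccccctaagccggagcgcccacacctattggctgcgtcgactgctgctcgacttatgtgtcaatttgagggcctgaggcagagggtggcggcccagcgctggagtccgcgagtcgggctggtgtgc
Mnt: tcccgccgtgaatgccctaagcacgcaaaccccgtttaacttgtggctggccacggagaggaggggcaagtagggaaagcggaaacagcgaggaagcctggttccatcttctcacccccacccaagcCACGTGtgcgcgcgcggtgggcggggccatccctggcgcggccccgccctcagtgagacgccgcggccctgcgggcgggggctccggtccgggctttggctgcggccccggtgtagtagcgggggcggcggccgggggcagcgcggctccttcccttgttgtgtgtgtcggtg
The E-box began 3 bases before the start of Max, 219 bases before that of Mxd4 and 123 bases before that of Mnt. A match describes these letters and is no sign of binding.

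Counted reads ran from 18827892 to 20264417 per LSK library and from 21012702 to 27434086 per neutrophil library. Spop itself stood at 380 and 390 CPM (reads of a gene scaled to library size by TMM factors) in the wild-type LSK pair and 312 and 306 CPM in the knockout pair. That fall was 1.25-fold, and its absolute log2 fold change exceeded that of only 41.2% of all genes tested, so it tests the LSK labels weakly. In neutrophils Spop was at 135 and 194 CPM against 158, 178 and 210 CPM, so there Spop reads do not test the labels. The second knockout LSK library is listed as neutrophil in its cell type entry, while its title says LSK; every LSK library held 0 reads of Ly6g. Kit was at 990 and 1049 CPM in wild-type and 605 and 644 CPM in knockout LSK cells. In neutrophils 4 Y-linked genes summed to 0.04 and 0.03 CPM in wild type against 79.4, 90.2 and 136 CPM in knockout, so sex and genotype cannot be told apart in that population; they summed to 207 to 298 CPM in the LSK libraries. The second wild-type neutrophil library stood apart: its 11 neutrophil markers summed to 38553 CPM (220092 CPM in the other wild-type library, 223574 to 672608 CPM in knockout), and MHC class II transcripts reached 24883 CPM (540 CPM in the other, 16.9 to 85.5 CPM in knockout). The third knockout neutrophil library had 18206 CPM of erythroid markers, against 2.25 to 3638 CPM in the other neutrophil libraries. The labels do not tie the libraries of a group to different animals; p-values therefore cover only the variation among these libraries, which may be technical.

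In knockout LSK cells Myc was higher, and Mycn and 2 of the 5 repressor genes were lower. Myc rose, and Mycn, Mxd4 and Mxi1 fell (edgeR quasi-likelihood test, Benjamini-Hochberg adjusted p below 0.05 over 13008 genes), while Max, Mxd1, Mxd3 and Mnt did not pass. In all 5 repressor genes both knockout libraries lay below both wild-type libraries. That 4 of 8 members were called has to be read against all genes, of which 42.2% were called in LSK cells, so the count itself does not set the members apart. The wild-type and knockout libraries did not overlap at any of the 8 members, against 72.9% of all genes; knockout lay above wild type at 2 members (34.6% of all genes) and below it at 6 (38.3%). In an alternative fit that shared its estimate of the spread with the neutrophil libraries, 0 of the 8 members and 0 genes were called. In bulk samples, fewer cells of a type and less RNA per cell cannot be told apart. Markers of granulocyte precursors (Mpo, Elane, Prtn3, Ctsg and Ms4a3) summed to 1571 and 2097 CPM in wild-type LSK cells against 16003 and 18792 CPM in knockout, and 8 genes of cycling cells to 2393 and 2325 CPM against 4100 and 4412 CPM. The 8 LSK markers, of which 5 fell and 2 rose, summed to 4453 and 4138 CPM against 2897 and 3090 CPM, and 9 monocyte and macrophage markers, of which 5 rose and 3 fell, to 122 and 161 CPM against 583 and 839 CPM. The part of these markers in the members' changes was not tested.

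**Figure D1:**
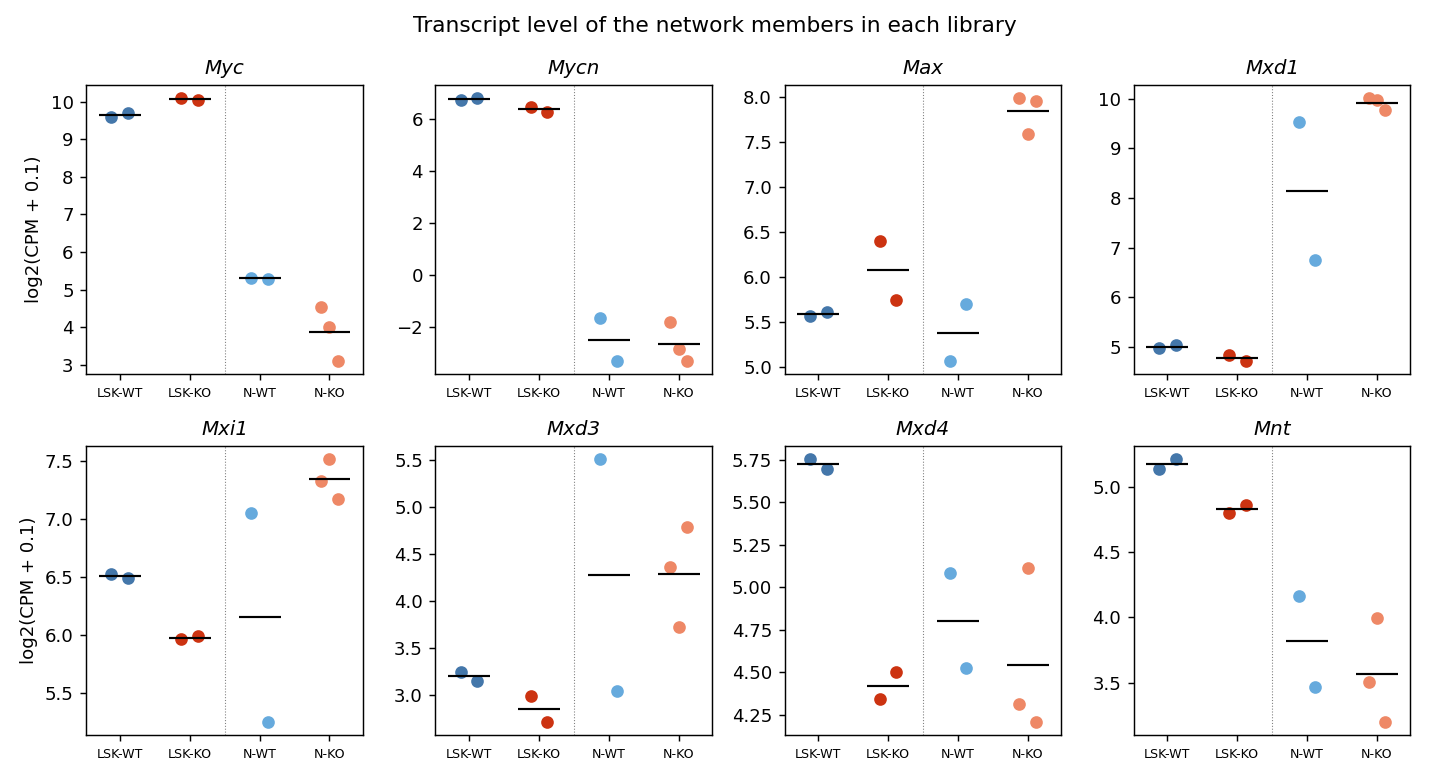
Level of each member in each library, as log2(CPM + 0.1) on the vertical axis, by group on the horizontal axis (LSK-WT and LSK-KO, wild-type and knockout LSK cells; N-WT and N-KO, wild-type and knockout neutrophils); points are libraries and bars are group means. The vertical scale differs between panels, and the 2 populations came from separate tables; the 3 knockout neutrophil libraries stand above both wild-type ones for Max, and the knockout LSK libraries stand below wild type for the 5 repressor genes.

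Myc (ENSMUSG00000022346, chromosome 15, 61985391 to 61990374, plus strand, GRCm38), the activator of the network, read 765 and 835 CPM in wild-type LSK cells against 1091 and 1049 CPM in knockout. Both knockout libraries were higher and differed little from each other. The rise was 1.34-fold (log2 fold change 0.42, SE 0.0953, 95% confidence interval 0.21 to 0.63, adjusted p = 0.00357, edgeR). The absolute log2 fold change of Myc exceeded that of 51.5% of all genes tested. Without the first wild-type library, the lower of the pair, the rise was log2 0.36. Without the second knockout library, whose cell type entry differs, the rise was log2 0.45. Each of these fits leaves 1 library in a group and so holds no spread within it. For such fits only the size is given, here and for the members below.

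Mycn (ENSMUSG00000037169, chromosome 12, 12936093 to 12941914, minus strand) encodes the Myc paralogue used in early progenitors and in neural tissue. It moved the other way, from 107 and 112 CPM in wild-type to 88.8 and 76.8 CPM in knockout LSK libraries (a log2 difference of -0.40 with SE 0.112 and interval -0.64 to -0.16, adjusted p = 0.0118, edgeR). The groups did not overlap, and with each LSK library left out in turn the log2 value was -0.47 to -0.30. The log2 value was -0.30 without the second knockout library. In absolute size the log2 fold change of Mycn exceeded that of 49.7% of all genes tested.

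Max (ENSMUSG00000059436, chromosome 12, 76937269 to 76962201, minus strand) encodes the partner shared by all the others. Its LSK levels were 47.3 and 48.7 CPM in wild type and 84.8 and 53.7 CPM in knockout. The first knockout library was well above the other 3, and the second only slightly above wild type. The difference did not pass (log2 0.53, SE 0.193, interval 0.09 to 0.97, adjusted p = 0.0535, edgeR). It rested on the first knockout library: it was log2 0.20 without that library and 0.82 without the second. It was called with DESeq2 (adjusted p = 0.0123), with the replicate number as a block (log2 0.49, adjusted p = 0.00574) and with no filter on low counts (adjusted p = 2.15e-04).

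Among the repressors Mxd4 (ENSMUSG00000037235, chromosome 5, 34173883 to 34187720, minus strand) changed most. It was at 53.9 and 51.7 CPM in wild-type LSK cells against 20.2 and 22.6 CPM in knockout, 2.47-fold lower (log2 -1.31, SE 0.140, interval -1.61 to -1.002, adjusted p = 1.59e-05, edgeR). Its absolute log2 fold change exceeded that of 89.6% of all genes tested. With each LSK library left out in turn it was log2 -1.38 to -1.19, and -1.38 without the second knockout library. Without strand in the counts, reads of Mxd4 and of the antisense gene Gm42846, which shares 6.06% of its exon bases, cannot be told apart.

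Mxi1 (ENSMUSG00000025025, chromosome 19, 53310518 to 53375810, plus strand), also known as Mxd2, stood at 91.9 and 90.0 CPM in wild-type LSK cells against 62.3 and 63.3 CPM in knockout. Replicates agreed closely within each genotype. It was 1.45-fold lower in knockout (log2 -0.53, SE 0.109, interval -0.77 to -0.30, adjusted p = 0.00179, edgeR). Its absolute log2 fold change exceeded that of 61.1% of all genes tested. With each LSK library left out in turn the log2 value was -0.55 to -0.48, and -0.54 without the second knockout library. An opposite-strand gene, Gm10197, shares 2.84% of its exon bases.

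Mnt (ENSMUSG00000000282, chromosome 11, 74830920 to 74845725, plus strand), the broadly expressed repressor of the network, was at 35 and 37.0 CPM in wild-type LSK cells against 27.8 and 28.9 CPM in knockout. The groups were apart, but the difference did not pass (log2 -0.34, SE 0.142, interval -0.65 to -0.04, adjusted p = 0.0692, edgeR). With upper-quartile scaling it did (log2 -0.44, adjusted p = 0.0246). That scaling took the median over all LSK genes from -0.03 to -0.12 (log2).

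Mxd1 (ENSMUSG00000001156, chromosome 6, 86647042 to 86669161, minus strand) was at 31.2 and 32.9 CPM in wild-type LSK cells against 28.5 and 26.2 CPM in knockout (log2 -0.23, interval -0.55 to 0.09, adjusted p = 0.234, edgeR). Mxd3 (ENSMUSG00000021485, chromosome 13, 55325168 to 55329823, minus strand), a member known for expression in cells in S phase, was at 9.43 and 8.82 CPM against 7.87 and 6.49 CPM (log2 -0.35, interval -0.87 to 0.18, adjusted p = 0.276). Both intervals include 0. Of the 8 genes of cycling cells 7 rose and 0 fell in the same libraries. The opposite-strand gene Prelid1 shares 4.43% of the exon bases of Mxd3.

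**Figure D2:**
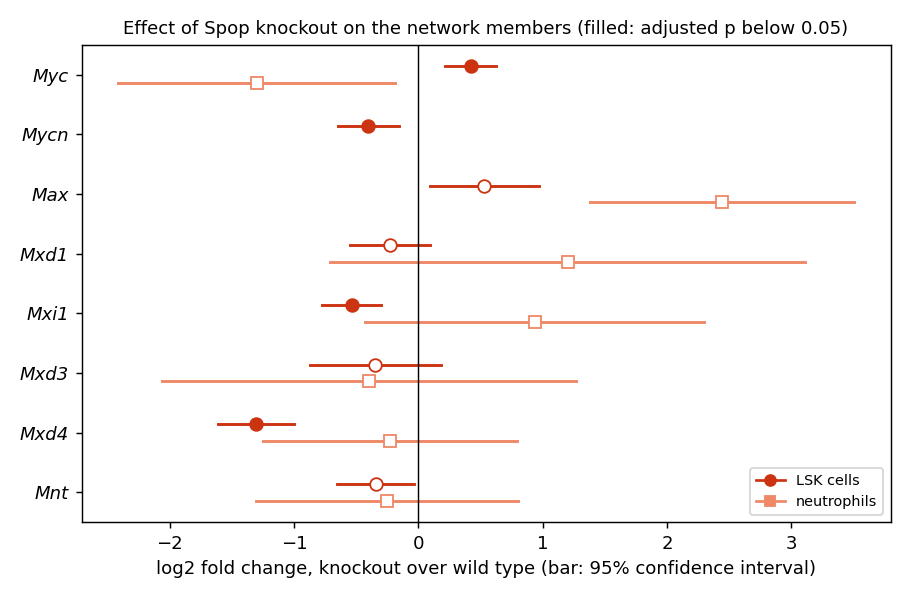
Log2 fold change of knockout over wild type (horizontal axis) for each member (vertical axis), with its 95% confidence interval from the edgeR fit, in LSK cells (circles) and neutrophils (squares); filled symbols have an adjusted p below 0.05. Filled symbols are Myc, Mycn, Mxi1 and Mxd4 in LSK cells; Mycn was not tested in neutrophils, where all intervals are wider.

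To compare levels between genes, CPM were divided by the exon length of each gene in kb (all annotated exons merged). These lengths ran from 2369 bases for Mxd3 and 2717 for Myc to 8483 for Mxd4, and can exceed that of any transcript. The order, shares and ratios below depend on them. On that scale Myc made up most of the network in LSK cells, at 282 and 307 CPM per kb in wild type and 402 and 386 CPM per kb in knockout. In wild type Mycn came next (32.4 and 34.0 CPM per kb), then Max (13.1 and 13.5) and Mxi1 (13.5 and 13.2), which overlapped, and then Mnt (7.56 and 7.99), Mxd4 (6.36 and 6.10), Mxd1 (4.41 and 4.65) and Mxd3 (3.98 and 3.72), each below the one before in both libraries. In knockout Mxd4 was last, at 2.38 and 2.66 CPM per kb. As a share of the 8 members summed per kb, Myc took 77.6% and 78.7% in wild type and 84.2% and 86.0% in knockout. The summed level of Myc and Mycn per kb was 8.77 and 9.58 times that of the 5 repressors in wild type and 17.2 and 16.6 times in knockout. These ratios follow from the members' own changes and were not tested.

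**Figure D3:**
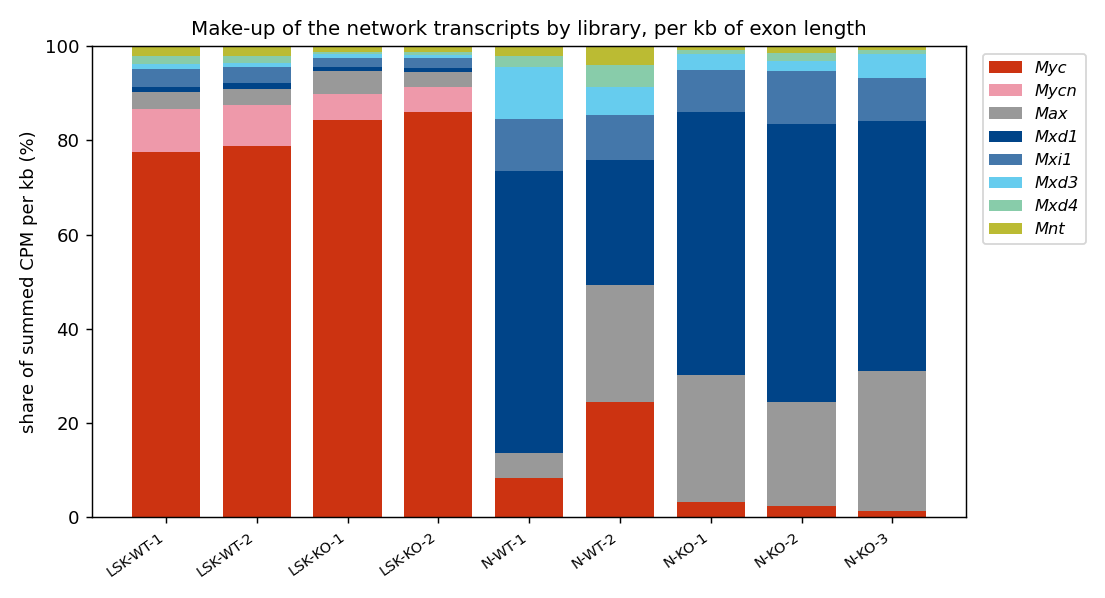
Share of each member in the summed CPM per kb of exon length of the 8 members (vertical axis, %) in each library (horizontal axis). Myc fills 77.6% to 86.0% of the bars of LSK libraries, and Mxd1 53.1% to 59.7% of those of neutrophils except the second wild-type library, where it takes 26.4%.

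The related genes outside the members are proteins that pair with Max or with its relative Mlx. Of 5 listed, 4 were tested in LSK cells, where 1 rose and 2 fell, against 21% and 21.2% of all genes. The median log2 fold change was -0.40, and -0.52 to -0.27 with each library left out in turn. The third Myc paralogue, Mycl, was low and fell, from 5.58 and 6.19 CPM in wild type to 1.41 and 1.12 CPM in knockout (log2 -2.22, SE 0.375, adjusted p = 4.79e-04, edgeR). Mlx rose 1.53-fold and Mlxip, which encodes the glucose-sensing Mlx partner MondoA, was 1.52-fold lower (log2 -0.61, adjusted p = 0.00270). Both targets listed for MondoA and Mlx fell: Arrdc4 was at 105 and 111 CPM in wild type against 39.7 and 44.4 CPM in knockout, and Txnip fell by 2.22 on the log2 scale.

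Genes that Myc is known to activate were higher in knockout LSK cells. Of 49 tested, 40 rose and 0 fell, where 21% of all genes rose and 21.2% fell. The median log2 fold change was 0.72 against -0.03 over all genes. This list, like the others, was chosen with earlier results of these data known, so its counts are a description and no independent test. Granulocyte precursor and cycling markers rose in the same libraries, as given above, and their part in these changes was not tested. Cad, the enzyme that starts pyrimidine synthesis, was at 139 and 145 CPM in wild-type LSK cells against 323 and 337 CPM in knockout, 2.32-fold higher in knockout (SE of the log2 fold change 0.0925, edgeR adjusted p = 1.28e-06). The amino acid transporter gene Slc7a5 rose 2.50-fold, from 131 and 143 CPM to 357 and 328 CPM. Tfrc, which encodes the transferrin receptor, rose from 36.4 and 40.2 CPM to 282 and 286 CPM. The median was 0.67 to 0.72 when each library was left out in turn. When the spread was shared with the neutrophil libraries, 0 of these genes were called. CACGTG was found in the promoters of 13 of the 43 listed genes with a RefSeq promoter (30.2%), against 8.09% of all genes with such a promoter. Here too a match is no sign of binding.

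Polyamine genes changed in both directions: of 11 genes 3 rose and 4 fell, where 21% of all genes rose and 21.2% fell. The median of the list was 0.09 (log2), but -0.0037 without the second wild-type library, 0.013 without the second knockout library, 0.19 without the first wild-type and 0.20 without the first knockout library, so it had no stable sign. Odc1, the first enzyme of polyamine synthesis, rose from 97.3 and 99.8 CPM in wild-type to 211 and 206 CPM in knockout LSK libraries (2.12-fold, adjusted p = 3.92e-06, edgeR). The spermidine synthase gene Srm rose 2.22-fold, and Azin1, whose product protects the Odc1 enzyme from antizyme, rose 1.35-fold. Smox, a spermine oxidase, fell: it was at 46.0 and 43.1 CPM against 16.8 and 14.5 CPM (log2 -1.51, SE 0.156, adjusted p = 1.17e-05). Sat1, whose product acetylates polyamines, had a log2 fold change of -0.54 and the antizyme gene Oaz2 of -0.58. The fourth gene that fell was Azin2, an antizyme inhibitor like Azin1 (log2 -1.03, adjusted p = 0.0181), named to complete the count.

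In a list of Miz1, a partner of Myc, and genes that Myc is known to lower, 6 of 9 tested fell and 1 rose. Over all genes 21.2% fell and 21% rose. The median log2 fold change of the list was -0.55 against -0.03 over all genes. It was -0.61 to -0.38 with each library left out in turn. When the spread was shared with the neutrophil libraries, 0 genes of this list were called. Cdkn1c, the cyclin-dependent kinase inhibitor p57, was at 18 and 17.3 CPM in wild-type LSK cells against 4.48 and 6.60 CPM in knockout (3.18-fold lower, adjusted p = 1.40e-04, edgeR). Ndrg1 was 1.47-fold lower. Thbs1 was at 6.54 and 3.94 CPM in wild type against 0 and 0.426 CPM in knockout, near the floor of 3 reads (0.141 to 0.160 CPM), so no fold is given. Cebpd, a myeloid transcription factor, was the gene that rose (2.41-fold), beside the rise in granulocyte precursor markers given above.

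In 3 lists of proteins that work with the network, the share of genes called was near or below the 42.2% of all genes, so these counts do not set the lists apart. Of 15 coactivator genes 5 rose and 1 fell (median log2 fold change 0.11, and 0.17 without the first knockout or 0.19 without the second wild-type library). The ATPase gene Ruvbl2 rose 2.23-fold, the acetyltransferase gene Kat2a 1.53-fold and Actl6a 1.38-fold, and the chromatin reader gene Bptf was 1.98-fold lower. Of 14 corepressor genes 2 rose and 4 fell (median -0.11): the histone-binding genes Rbbp7 and Rbbp4 rose 1.36-fold and 1.31-fold, while the log2 fold changes of Arid4a and Arid4b were -0.47 and -0.63. With each library left out in turn the median of the corepressor genes was -0.11 to -0.03. Of 14 genes for the stability of Myc protein 4 rose and 1 fell, with a median of 0.00. Skp2, a ubiquitin ligase subunit that acts on Myc, rose 1.80-fold and the deubiquitinase gene Usp37 rose 1.27-fold, and Axin1 was 1.22-fold lower. The median of these stability genes was -0.04 to 0.05 with each library left out in turn. Myc protein was not measured.

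**Figure D4:**
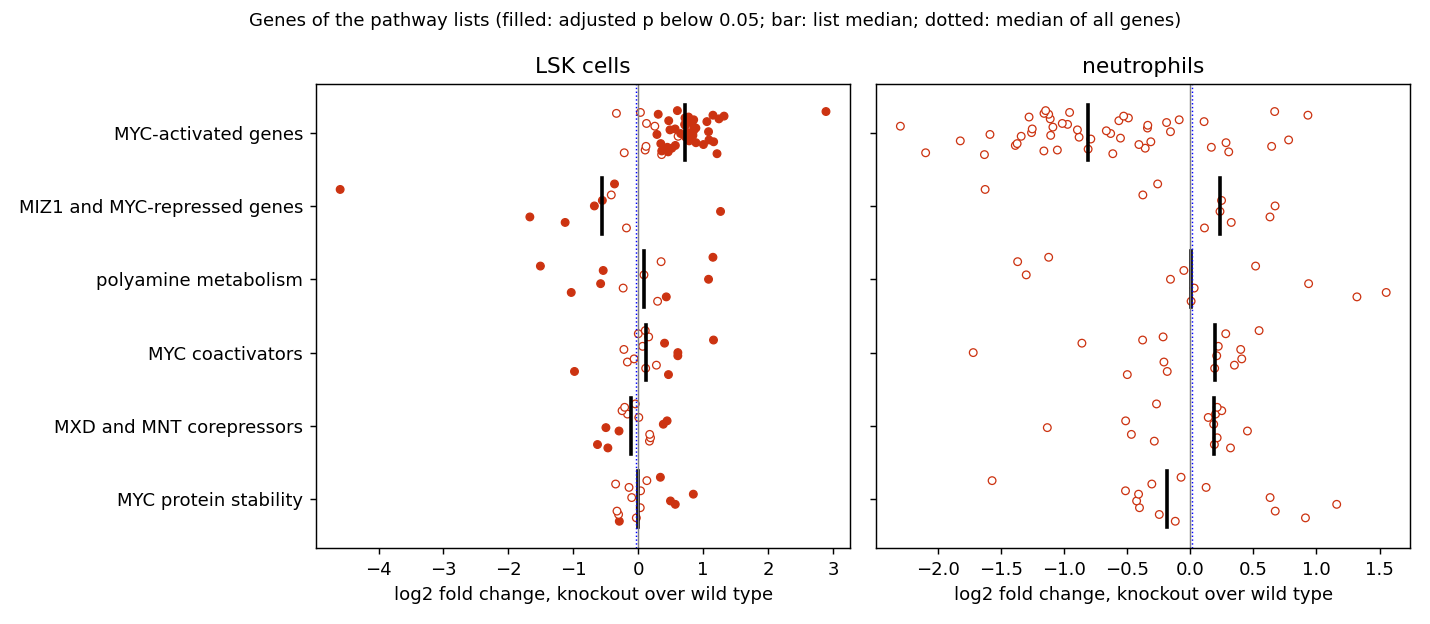
Log2 fold change of knockout over wild type (horizontal axis) for the genes of 6 lists (vertical axis), in LSK cells (left) and neutrophils (right); each point is a gene, filled where its adjusted p was below 0.05, black bars are list medians and the dotted line is the median of all genes. In LSK cells 40 of 49 Myc-activated genes are filled with a median of 0.72, and in neutrophils no point is filled; the horizontal scales differ.

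In neutrophils Mxd1 made up the largest share of the network. It took 59.7% of the 8 members summed per kb in the first wild-type library, 26.4% in the second and 55.7%, 59.0% and 53.1% in the knockout libraries, while Myc took 8.38%, 24.5%, 3.26%, 2.43% and 1.35%. Neutrophil and LSK libraries were counted in separate tables, so levels stand side by side without a test between populations. No gene passed the edgeR test between genotypes in neutrophils (0 of 12836, 0%), although 1787 had an unadjusted p below 0.05 and DESeq2 called 891. On data simulated with the spread of these libraries the edgeR fit called none of the changes planted, so a missed threshold in neutrophils does not show that a gene did not differ. Of the 7 members tested 0 passed with edgeR, 2 (Myc and Max) had an unadjusted p below 0.05 and DESeq2 called 1 (Max). Mycn was not tested: it had 6 and 0 reads in wild type and 5, 1 and 0 reads in knockout.

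Max showed the largest difference among the members in neutrophils. It was at 33.5 and 51.9 CPM in wild type against 254, 192 and 248 CPM in knockout. All 3 knockout libraries were far above both wild-type libraries, 5.42-fold on the fitted scale (log2 2.44, SE 0.449, interval 1.38 to 3.50), but edgeR's adjusted p was 0.207. Such a separation upward was found at 17% of all genes. With a single library left out the log2 value stayed between 2.21 and 2.76. Max was called with DESeq2 (adjusted p = 9.11e-07), in the edgeR fit shared with LSK cells (0.0368) and in edgeR with no filter on low counts (0.0190).

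Myc was at 39.8 and 38.6 CPM in wild type against 23.3, 16.0 and 8.5 CPM in knockout neutrophil libraries. All knockout libraries were lower, and they differed from each other more than the wild-type pair did (log2 -1.30, SE 0.471, interval -2.41 to -0.18, adjusted p = 0.296, edgeR). Such a separation downward was found at 17.5% of all genes. Granulocyte precursor markers summed to 9464 and 665 CPM in wild type against 5358, 1444 and 4350 CPM in knockout; their part in the difference was not tested. Without the second wild-type library the log2 value was -1.35.

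Among the repressors in neutrophils, Mxd1, the member known to rise with granulocyte maturation, was at 738 and 108 CPM in wild type against 1035, 1012 and 871 CPM in knockout. The wild-type libraries differed more from each other than the first did from knockout (log2 1.2, SE 0.809, interval -0.71 to 3.11, adjusted p = 0.546, edgeR). Without the second wild-type library the value was 0.37, and without the first it was 3.22. Mxi1 had the same order, with 133 and 38 CPM against 161, 184 and 145 CPM (log2 0.94, adjusted p = 0.511, edgeR). Its log2 value was 0.27 when the second wild-type library was left out and 2.16 when the first was.

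The other repressor genes overlapped between genotypes in neutrophils. Mxd3 was at 45.5 and 8.19 CPM in wild type against 20.5, 13.2 and 27.5 CPM in knockout (log2 -0.40, interval -2.06 to 1.26). Mxd4, the member of largest change in LSK cells, was at 33.8 and 22.9 CPM against 19.8, 34.5 and 18.4 CPM (log2 -0.23, interval -1.25 to 0.80). Mnt was at 17.8 and 11 CPM against 11.3, 15.8 and 9.11 CPM (log2 -0.25, interval -1.31 to 0.80). Of the 5 repressor genes, Mxd1, Mxi1 and Mxd3 were lowest in the second wild-type library, the library with the fewest neutrophil transcripts.

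Among related genes in neutrophils, Mycl was at 0.569 and 16.0 CPM in wild type against 0.0364, 0 and 0 CPM in knockout, so nearly all of its reads came from the second wild-type library, which also held most of the MHC class II and B cell transcripts. Of 49 Myc-activated genes 0 passed with edgeR, 10 had an unadjusted p below 0.05 and DESeq2 called 1, which was lower. Their median log2 fold change was -0.81 against 0.02 over all genes, and -0.43 without the second wild-type library. Among the genes named for LSK cells, Odc1 was at 15.9 and 15.6 CPM against 13.7, 13.8 and 15.0 CPM, Srm at 41.5 and 30.0 CPM against 24.0, 15.4 and 9.91 CPM, and Slc7a5 at 22.0 and 25.2 CPM against 54.4, 44.5 and 36.2 CPM. The knockout libraries of Slc7a5 lay above both wild-type libraries, and those of Odc1 and Srm below both. Of the 49 Myc-activated genes, 3 were separated upward in this way and 18 downward, against 17% and 17.5% of all genes.

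Whether the effect of genotype differed between the populations was tested with an interaction term in 1 fit to the 9 libraries. Sex and genotype coincide in neutrophils but not in LSK cells, so the term cannot tell a difference in genotype effect from one of sex. None of the 7 members passed with edgeR (0 of 7; 2 had an unadjusted p below 0.05), where 0.029% of 13815 genes did. For Myc the LSK effect minus the neutrophil effect was log2 1.75 (SE 0.607, interval 0.35 to 3.15, adjusted p = 0.243), and for Max it was -1.87 (SE 0.448, interval -2.90 to -0.84, adjusted p = 0.178). For Mxi1 it was -1.40 (interval -3.02 to 0.22), for Mxd1 -1.36 (-3.63 to 0.91) and for Mxd4 -1.03 (-2.23 to 0.18). The opposite signs of Myc in the 2 populations are therefore not shown to differ. The 4 genes that passed were the Y-linked Ddx3y, Eif2s3y, Kdm5d and Uty, named here after their values were seen.

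Genes whose levels ran most like those of Myc were looked for among 8024 genes whose mean log2 CPM was 2 or more in both populations, by Pearson's correlation of log2 CPM over the 9 libraries after the mean of each population was removed. The 5 highest were Kat2a (r = 0.994), Polrmt (0.993), Gaa (0.992), Ppan (0.988) and Telo2 (0.986), and 197 genes exceeded 0.9. Kat2a encodes an acetyltransferase that Myc recruits and Polrmt the mitochondrial RNA polymerase. For Mxd1 the highest were Acpp (0.996), Tmem120a (0.995), Fam222b (0.994) and Flot1 (0.994). The neutrophil libraries, which spread most, weigh most in these values: within the 4 LSK libraries the correlation with Mxd1 was 0.226 for Fam222b and 0.449 for Tmem120a. The points share libraries and depth, so the correlations are descriptions.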

How the data were processed

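Per the labels' protocols, RNeasy Micro was used for RNA and SMART-Seq v4, a kit that does not mark strand, for libraries. Tools in the submitters' processing notes are STAR, featureCounts, bcl2fastq and DESeq2, with no version, and builds mm10 and GRCm38; annotation and strand setting: not given in the sources used here. Files deposited by the authors hold raw read counts per gene, used in all tests, and normalized values (signal), which were the counts over 1 size factor for each library and served to find the members and check column names.

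LSK genes were named from Ensembl identifiers with GENCODE M21 (GRCm38; 35412 of 37187), which also gave coordinates and exon lengths; 35219 genes were joined between tables by symbol. Counts were tested within each population with edgeR 4.0.16 (R 4.3.3; TMM, the package's expression filter, robust quasi-likelihood fit, Benjamini-Hochberg adjustment, threshold 0.05), and the interaction in a fit of all 9 libraries; DESeq2 1.42.0 was an alternative. The fits were tested on simulated data with planted log2 changes of 1 and 2, at 100 genes each. That of LSK cells called 91% and 100% of them. It also made 35 false calls among 13008 genes, a larger share of its calls than the 0.05 threshold allows. That of neutrophils called none. No replicate pair agreed within sampling noise (the lowest chi-square, divided by the number of genes, was 9.87), and each library was a replicate of its own. A floor of 3 reads covers counting error only, since reads here carry no molecular identifiers and can be copies. The members and lists were chosen with earlier results of these data known. All members are named, then up to 3 genes per list and direction with the smallest p in LSK cells among those called, and the 5 genes most like Myc and Mxd1; a few marker and quality genes are named besides, and some genes that this rule selects are not reported here. Of the pathway list genes, Prmt1 had no row in the LSK table under its GENCODE name.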

Additional observations from a re-analysis of the deposited data

How the results depend on the processing

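Alternatives were DESeq2, upper-quartile scaling, no filter on low counts, the replicate number as a block, a fit of both populations with a shared spread, and leaving out each library in turn. Counts of calls below include fits that leave 1 library in a group, which hold no spread within that group. In LSK cells 60 of 72 values of members under these alternatives kept their direction and their side of the threshold, 7 were no longer called, 5 were newly called and none changed sign. The shared spread left 0 LSK genes and 0 LSK members called, in place of 5494 and 4; the neutrophil libraries, which spread more, enter that estimate. Leaving out a library gave 3524 to 5718 LSK genes and 2 to 5 members, the fewest in each case without the first wild-type library. Upper-quartile scaling called 2207 LSK genes higher and 3445 lower, against 2738 and 2756. In neutrophils, where 0 genes and 0 members were called, DESeq2 called 891 genes and 1 member, the shared spread 562 and 1, no filter 334 and 1, and the replicate block 334 genes and 0 members; leaving out a library gave 0 to 601 genes and 0 to 1 members, the most without the first wild-type library. Under upper-quartile scaling the median over all neutrophil genes was -0.12 in place of 0.02 (log2). In neutrophils, 3 uncalled members changed sign without the first wild-type library, with ranges over the libraries left out of -1.19 to 1.37 for Mxd3, -0.58 to 0.14 for Mxd4 and -0.59 to 0.19 for Mnt. The interaction called 4 genes and 0 members; the replicate block called 0 genes, and leaving out a library gave 0 to 1406 genes and 0 to 2 members, the most (Mxd1 and Mxi1) without the first wild-type neutrophil library. The interaction of Mxd3 was -0.090 with the replicate block and ran from -1.65 to 0.80 over the libraries left out, and that of Mnt from -0.49 to 0.21. Except where stated, the cause was not tested. Same-numbered libraries share only a number: deviations of same-numbered LSK libraries from their group means correlated at 0.03 over genes, and those of neutrophils at 0.21 (number 1) and 0.02 (number 2). With the block, 5776 LSK genes and 5 members were called. At 0 to 6 reads, Mycn in neutrophils was below what this depth can compare.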
